A study of Canis lupus familiaris with 6 samples.

Results

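The genes described here carry signals from Fc receptors, the receptors for the constant part of antibodies, through SRC-family kinases and SYK in myeloid cells. They were chosen by gene name from a list of 9 genes, and 8 of the 9 were found by name among the 31512 genes of the table: FCGR1A, FCER1G, LYN, FGR, SYK, BTK, PTPN6 and INPP5D. The ninth, TYROBP, had no row of that name and was not analysed here. All 8 passed the filter on low values and were among the 9847 genes tested.

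When an antibody-coated particle cross-links an Fc receptor such as FCGR1A, the SRC-family kinases LYN and FGR phosphorylate the tyrosine motifs of its signaling chain, FCER1G. The kinase SYK docks on the phosphorylated motifs and passes the signal on to adaptors and to effectors such as the TEC-family kinase BTK. The phosphatases PTPN6 (SHP-1) and INPP5D (SHIP1) restrain the same pathway, and in blood these genes are known from monocytes and neutrophils, with several of them also used by B cells and mast cells.

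Whole blood of adult Beagle dogs, 1.5 years old, was taken on day 30 of feeding and sequenced as 1 library per dog, 3 libraries from control dogs and 3 from CPP-Se dogs. All dogs ate the same maintenance food and 30 g of a snack, to which CPP-Se was added at 0.03% for the CPP-Se group only. CPP-Se is selenium chelated by casein phosphopeptides. Levels are FPKM, fragment counts divided by gene length and by the size of the library, and gene positions are those of the dog genome of Ensembl release 100. The blood held all of its cell types, and no fraction was sorted.

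Reads recovered from the FPKM numbered 6598173 to 8067034 per dog on genes. CPP-Se replicate 2 stood apart: 8 hemoglobin genes held 36.6% of its reads against 48.7% to 55.9% in the other dogs, and the library size behind its FPKM was 1.65 times its reads on genes, against 0.882 to 1.05 times in the others. Counts over the members are therefore given with and without that dog, and under other scalings. Of the members, BTK rested on the fewest reads (139 to 327 per dog) and SYK on the most (1481 to 4456).

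All 8 genes had a lower mean in the CPP-Se dogs, and for 6 of them every CPP-Se dog lay below every control dog. The same order held for 12.6% of all genes tested. With each dog brought to a common sum of FPKM, it held for 1 of the 8, FCGR1A, and for 3.15% of all genes. FCGR1A and FGR stood at 56.4% and 57.2% of their control means, SYK and LYN at 62.3% and 63.0%, and FCER1G at 69.6%. PTPN6 stood at 73.8%, INPP5D at 87.9% and BTK at 95.4%. None of the 8 passed the test used here (limma, with thresholds of 0.05 on the adjusted p and 1.5 on the fold change), which 0.0305% of all genes tested passed. In whole blood, fewer cells of a type and less RNA per cell cannot be told apart in any of these values.

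FCGR1A (ENSCAFG00000011504, chr17:59092933-59102015, plus strand) encodes the high-affinity receptor for IgG. Its level was 96.9, 87.1 and 79.7 FPKM in control replicates 1, 2 and 3 and 43.1, 51.0 and 54.7 FPKM in CPP-Se replicates 1, 2 and 3. The groups did not overlap, and the lowest control dog was 1.46 times the highest CPP-Se dog, the widest gap among the 8 genes. The means were 87.9 ± 8.62 and 49.6 ± 5.90 FPKM (SD, n = 3 each), a log2 fold change of -0.82 with a standard error of 0.19 and a 95% interval of -1.24 to -0.39. In limma with Benjamini-Hochberg adjustment over all genes tested this gave an adjusted p of 0.144. It was the one member with an adjusted p under 0.05 in limma-voom with sample quality weights on the recovered reads (0.0433), which called 1.06% of all genes lower. A negative binomial model of the same reads also called it lower, at an adjusted p of 0.00548.

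FCER1G (ENSCAFG00000012878, chr38:21268001-21270940, minus strand) encodes the signaling gamma chain shared by FCGR1A and the IgE receptor. It was the most abundant member per length, with 744, 650 and 854 FPKM in the control dogs and 563, 553 and 448 FPKM in the CPP-Se dogs. All control dogs lay above all CPP-Se dogs, with replicate 3 the highest of the control dogs and the lowest of the others. The means of 749 ± 102 and 521 ± 63.5 FPKM differed by a log2 fold change of -0.52 (standard error 0.23, 95% interval -1.05 to 0.0091), and the adjusted p in limma was 0.322. Its gene model is 261 bases long, the shortest of the 8, and it held 716 to 1924 reads per dog.

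LYN (ENSCAFG00000007034, chr29:7332684-7448507, plus strand) is a SRC-family kinase that starts Fc receptor signaling and also feeds the inhibitory arm. It was measured at 61.2, 61.4 and 50.7 FPKM in the control dogs and 34.6, 39.9 and 34.7 FPKM in the CPP-Se dogs. The groups did not overlap, and the CPP-Se dogs were close to each other. The means were 57.8 ± 6.09 and 36.4 ± 3.07 FPKM, and the log2 fold change was -0.65 (standard error 0.18, 95% interval -1.06 to -0.24), with an adjusted p of 0.183 in limma. The negative binomial model called it lower at an adjusted p of 0.0359.

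FGR (ENSCAFG00000012070, chr2:72680675-72690251, plus strand) is a SRC-family kinase of mature monocytes and neutrophils. Its values were 84.3, 75.4 and 74.6 FPKM in the control dogs and 44.7, 55.0 and 34.4 FPKM in the CPP-Se dogs. Here the control dogs were close together and the CPP-Se dogs spread, with replicate 2 the nearest to the controls. The means of 78.1 ± 5.37 and 44.7 ± 10.3 FPKM gave a log2 fold change of -0.81 (standard error 0.21, 95% interval -1.31 to -0.32) and an adjusted p of 0.176 in limma. Like FCGR1A and LYN it was called lower by the negative binomial model, at an adjusted p of 0.0317.

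SYK (ENSCAFG00000002171, chr1:95903566-95955583, minus strand), the kinase recruited to the phosphorylated gamma chain, was at 107, 99.4 and 126 FPKM in the control dogs and at 72.7, 78.2 and 56.6 FPKM in the CPP-Se dogs. The groups did not overlap, and replicate 3 was again the extreme dog of both groups. The means of 111 ± 14.0 and 69.2 ± 11.2 FPKM gave a log2 fold change of -0.68 (standard error 0.21, 95% interval -1.16 to -0.20). The adjusted p was 0.197 in limma and 0.118 in the negative binomial model, so neither called it.

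BTK (ENSCAFG00000017669, chrX:75270979-75302562, minus strand) acts below SYK and is also the kinase that B cells need for antigen receptor signaling. It was measured at 11.5, 8.65 and 9.38 FPKM in the control dogs and 9.11, 9.73 and 9.34 FPKM in the CPP-Se dogs. The groups overlapped, and the highest and the lowest dog were both controls. The means of 9.85 ± 1.49 and 9.40 ± 0.314 FPKM differed by -0.053 on the log2 scale (95% interval -0.46 to 0.35, adjusted p = 0.913 in limma), and the sign turned under both scalings to a common sum of FPKM and without control replicate 1.

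PTPN6 (ENSCAFG00000014463, chr27:38084980-38101937, minus strand) encodes SHP-1, a tyrosine phosphatase recruited by inhibitory receptors. It was at 107, 78.9 and 101 FPKM in the control dogs and at 69.6, 79.7 and 63.0 FPKM in the CPP-Se dogs. The groups overlapped by 1 pair of dogs, CPP-Se replicate 2 lying just above control replicate 2. The means of 95.9 ± 15.0 and 70.8 ± 8.39 FPKM gave a log2 fold change of -0.43 (95% interval -0.90 to 0.041) and an adjusted p of 0.355 in limma.

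INPP5D (ENSCAFG00000011650, chr25:44611523-44730200, plus strand) encodes SHIP1, which removes a phosphate from the lipid that recruits BTK to the membrane. Its values were 43.5, 37.9 and 39.6 FPKM in the control dogs and 32.9, 37.6 and 35.8 FPKM in the CPP-Se dogs. The groups did not overlap, but the lowest control dog was only 1.01 times the highest CPP-Se dog. The means of 40.3 ± 2.87 and 35.4 ± 2.34 FPKM gave a log2 fold change of -0.18 (95% interval -0.57 to 0.20) and an adjusted p of 0.632 in limma.

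**Figure D1:**
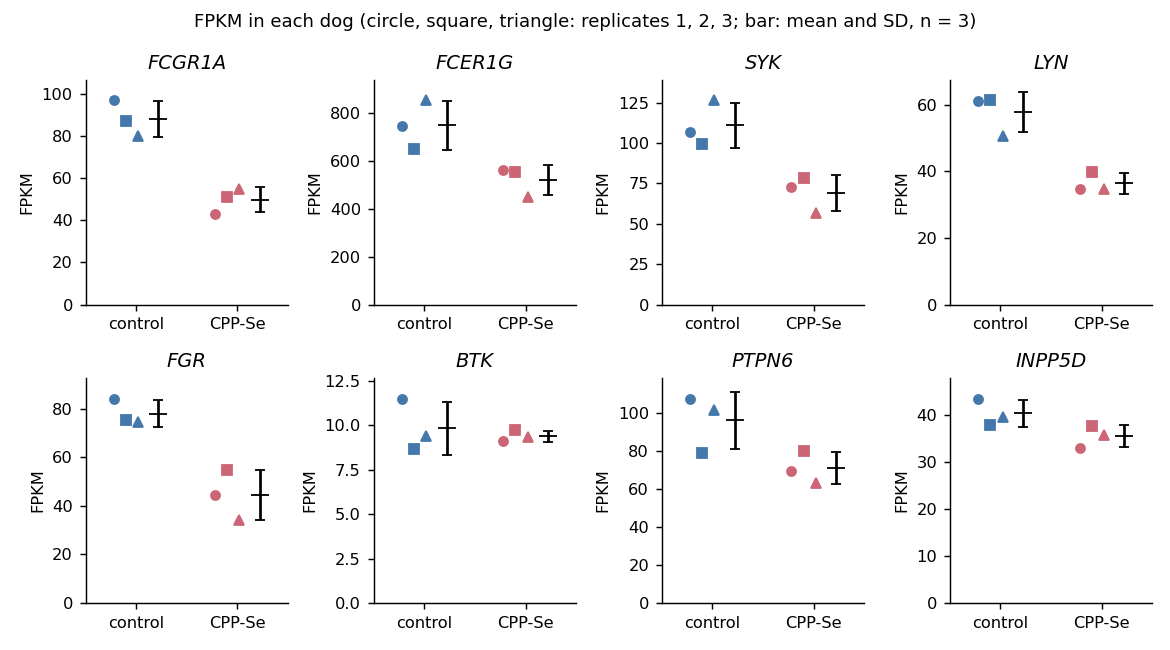
FPKM of the 8 genes in each dog, one panel per gene with its own axis from 0, with circle, square and triangle for replicates 1, 2 and 3 and a bar for the mean and SD of 3 dogs. The groups are apart in FCGR1A, FCER1G, SYK, LYN and FGR, nearly touch in INPP5D and overlap in PTPN6 and BTK.

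Counted over the 8 genes, 4 had an unadjusted p under 0.05 in limma (FCGR1A, SYK, LYN and FGR), all with the lower level in the CPP-Se dogs, where 9.1% of all genes tested were lower and 6.87% higher at that p. The 6 genes without overlap compare with 12.6% of all genes tested that were lower in every CPP-Se dog and 10.4% that were higher. The negative binomial model called 3 of the 8 lower (FCGR1A, LYN and FGR), against 2.47% of all genes. The median log2 fold change was -0.59 over the 8 genes and -0.0043 over all genes tested. The members were chosen with results of these dogs known, so these counts are a description. They also depended on the scaling: with each dog brought to a common sum of FPKM, 1 gene (FCGR1A) remained without overlap and no member had an unadjusted p under 0.05, while the median of the 8 was -0.43. Under that scaling 3.15% of all genes tested were lower in every CPP-Se dog and 2.68% were lower at that p, so the shares of all genes were smaller too. Lower in every CPP-Se dog were 1 member and 4.84% of all genes with a common sum outside the hemoglobin genes, 5 members and 12.1% with median-of-ratios factors, and 4 members and 10.9% after quantile normalization. Without CPP-Se replicate 2, 5 members had an unadjusted p under 0.05, all lower, beside 8.88% of all genes, and the median was -0.64. Of the 8, 7 were then lower in both remaining CPP-Se dogs, a count that leaving out a dog cannot reduce, and the share of all genes was 18%.

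**Figure D2:**
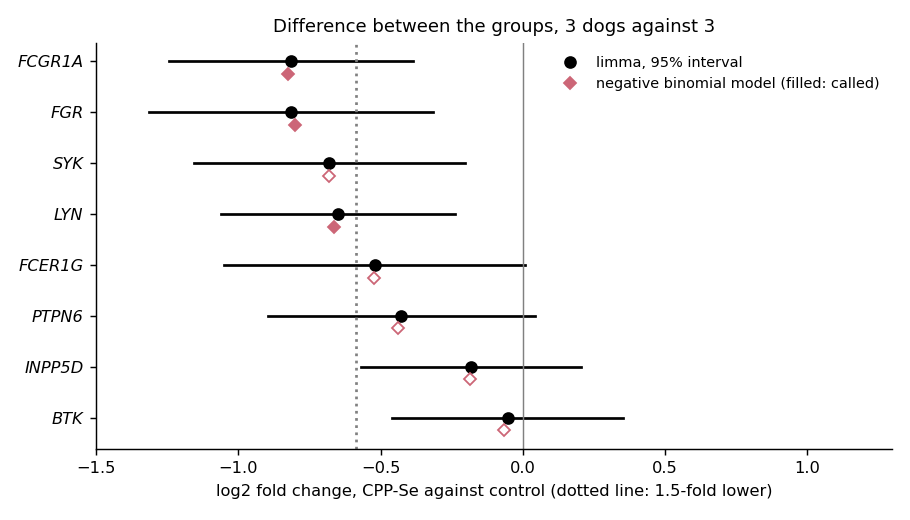
Log2 fold change of each gene, CPP-Se against control, with limma's estimate and 95% interval in black and the negative binomial estimate as a diamond, filled where called. The intervals of FCGR1A, FGR, SYK and LYN lie below 0 and those of FCER1G, PTPN6, INPP5D and BTK include it, and the estimate of BTK, -0.053, turns sign under both scalings to a common sum and without control replicate 1.

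The single dogs did not follow one order across the genes. Control replicate 1 held the highest value of 5 genes (FCGR1A, FGR, BTK, PTPN6 and INPP5D), control replicate 3 that of FCER1G and SYK, and control replicate 2 that of LYN. CPP-Se replicate 3 held the lowest value of FCER1G, SYK, FGR and PTPN6, and CPP-Se replicate 1 that of FCGR1A, LYN and INPP5D. CPP-Se replicate 3 was the highest of its group for FCGR1A, the receptor, and the lowest for SYK, the kinase.

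By mean FPKM the control dogs had the order FCER1G, SYK, PTPN6, FCGR1A, FGR, LYN, INPP5D and BTK. In that order the dogs' ranges overlapped between SYK and PTPN6, PTPN6 and FCGR1A, and FCGR1A and FGR. Overlap of ranges does not rank the genes within a dog: the ratio of FCGR1A to FGR was 1.15, 1.15 and 1.07 in the control dogs against 0.965, 0.928 and 1.59 with CPP-Se. In the CPP-Se dogs the order was the same except that PTPN6 stood above SYK, with overlap between these neighbours, between FCGR1A and FGR, between FGR and LYN, and between LYN and INPP5D. LYN and INPP5D were thus apart in the control dogs and overlapped in the CPP-Se dogs. FCER1G stood above and BTK below all other members in every dog.

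Ratios within a dog do not depend on the scaling between dogs. Each gene was set against the geometric mean of the 8 in the same dog, and the smallest two-sided p that an exact permutation test of 3 dogs against 3 can give is 0.1, so none could pass 0.05. FGR was lower relative to the 8 in every CPP-Se dog, by a log2 difference of -0.30 between the group means. BTK was higher in every CPP-Se dog, by 0.47, and so was INPP5D, by 0.34, each of the 3 at the smallest p of 0.1 in the exact permutation test. Against the same mean, 2% of all genes above 0 FPKM in every dog were lower in every CPP-Se dog and 37.5% were higher, so the higher ratios of BTK and INPP5D were shared with many genes. The other 5 overlapped, from -0.30 for FCGR1A to 0.093 for PTPN6. FCER1G had the smallest difference, 0.0046 on the log2 scale.

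Among the 28 pairs of members, the ratio of 13 did not overlap between the groups, beside 20.9% of all pairs of genes tested that were above 0 FPKM in every dog. BTK was in 6 of its 7 pairs without overlap and INPP5D in 5 of 7, against 2 or 3 of 7 for each other member. The ratio of FCGR1A to INPP5D was 2.23, 2.30 and 2.01 in control replicates 1 to 3, and in the CPP-Se dogs it was 1.31, 1.36 and 1.53. The ratio of FGR to INPP5D was 1.94, 1.99 and 1.88 in the control dogs against 1.36, 1.46 and 0.960 with CPP-Se. Receptor and kinase were thus lower per transcript of the inhibitory lipid phosphatase in every CPP-Se dog. INPP5D itself had a log2 fold change of -0.18. Like it, 37.5% of all genes above 0 FPKM in every dog were higher relative to the mean of the 8 in every CPP-Se dog.

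The ratio of SYK to INPP5D was 2.46, 2.62 and 3.19 in the control dogs against 2.21, 2.08 and 1.58 with CPP-Se. Against the other phosphatase, PTPN6, FGR stood at 0.784, 0.956 and 0.735 in the control dogs against 0.642, 0.690 and 0.545 with CPP-Se. FGR was lower relative to PTPN6 in every CPP-Se dog, while FCGR1A, FCER1G, SYK and LYN overlapped in their ratios to it. BTK went the other way without overlap, at 0.107, 0.110 and 0.0926 of PTPN6 in the control dogs against 0.131, 0.122 and 0.148 with CPP-Se. The ratio of FCER1G to SYK was also higher with CPP-Se, with 6.95, 6.54 and 6.75 in the control dogs against 7.75, 7.07 and 7.91 with CPP-Se, so the chain was higher relative to its kinase in each CPP-Se dog. All 13 of these ratios had the smallest p of 0.1 in the exact permutation test.

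Markers of blood cell types, among them the monocytes and neutrophils that carry these genes, also differed in level between the groups, by the values that follow, though limma called none of the monocyte or neutrophil markers. The negative binomial model called 3 of the monocyte markers lower (LYZ, VCAN and CD163, adjusted p of 0.000659, 0.00332 and 0.0398) and 2 of the neutrophil markers lower (CXCR2 and CSF3R, 0.00755 and 0.0414). Of all genes tested, 2.47% were called lower by that model, and 12.6% were lower in every CPP-Se dog. All 7 monocyte markers tested (LYZ, CSF1R, F13A1, CCR2, VCAN and CD163 among them) had a negative log2 fold change, 6 without overlap, with a median of -0.89. The summed level of the list, which also holds MRC1, was 568 to 785 FPKM in the control dogs and 266 to 347 FPKM in the CPP-Se dogs. LYZ, lysozyme, was at 620, 589 and 391 FPKM in the control dogs and at 235, 227 and 171 FPKM in the CPP-Se dogs. CD163, the lowest of the 7, ranged from 1.31 to 2.42 FPKM in the control dogs and from 0.0814 to 0.660 FPKM in the CPP-Se dogs. It rested on few reads, 54 to 93 per control dog against 3 to 53 per CPP-Se dog. With group means of 1.70 (control) and 0.454 FPKM (CPP-Se), it passed the filter of 1 FPKM only through its control level. The filter thus favoured its negative sign, and CD163 adds little to the counts and calls of this list. Of 8 neutrophil markers (CSF3R, S100A8, S100A12, MMP9, LTF, CXCR2 and MMP8 among them), 7 had a negative log2 fold change, 4 without overlap, the median was -0.71 and the summed level was 2411 to 3200 FPKM in the control dogs and 1839 to 2353 FPKM in the CPP-Se dogs. MMP9 was the exception, with 729, 23.7 and 540 FPKM in the CPP-Se dogs and 68.3 to 96.3 FPKM in the control dogs. No tested marker of these lists was at 0 in any dog. MRC1, below the filter, was at 0 in control replicate 1 and CPP-Se replicate 1, and CD14, S100A9 and CXCR1 had no row of those names. Their part in the results on the 8 genes was not tested.

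Lymphocyte markers had the opposite sign. All 8 B cell markers and all 8 T cell markers had a positive log2 fold change, 4 and 5 of them without overlap. The B cell count includes VPREB3 and PAX5, which passed the filter of 1 FPKM only through CPP-Se dogs. VPREB3 had group means of 0.143 (control) and 1.95 FPKM (CPP-Se) and at most 14 reads per dog. PAX5 had means of 0.837 and 1.20 FPKM, with 82 reads in CPP-Se replicate 2 against 7 to 18 in each other dog. The filter thus favoured their positive sign, and both overlapped between the groups. The summed level of the B cell markers was 275 to 392 FPKM in the control dogs and 412 to 462 FPKM in the CPP-Se dogs, and that of the T cell markers was 85.6 to 169 and 198 to 252 FPKM. BTK, used by B cells as well as by myeloid cells, had the smallest difference of the 8 members, and the part of the lymphocyte markers in that was not tested. The 6 markers of NK and cytotoxic cells tested were also higher on the log2 scale, 2 without overlap, while platelet, red cell and basophil, mast cell and eosinophil markers went both ways. Limma called none of the B cell, T cell or NK and cytotoxic cell markers. The negative binomial model called 1, 3 and 2 of them higher, beside 1.42% of all genes tested.

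Set against the mean of the 7 monocyte markers in the same dog, no member was lower in the CPP-Se dogs. FCER1G, LYN, BTK, PTPN6 and INPP5D were higher in every CPP-Se dog, and FCGR1A, SYK and FGR overlapped, with log2 differences of 0.35 to 1.12 over the 8. Of all genes above 0 FPKM in every dog, 66.4% were higher in every CPP-Se dog against this reference, so a higher ratio was common to most genes. Set against the mean of the 8 neutrophil markers, 7 members overlapped and BTK was higher in every CPP-Se dog, with log2 differences of -0.29 to 0.48, beside 28.2% of all genes that were higher in every CPP-Se dog. That reference rested on MMP9: without it, as an alternative added after the values were seen, BTK and INPP5D were higher in every CPP-Se dog, 6 members overlapped, the log2 differences were -0.026 to 0.75, and 41.8% of all genes were higher. The mean log2 level was 4.79 in the control dogs and 3.62 in the CPP-Se dogs for the monocyte markers, 7.54 and 7.01 for the neutrophil markers (7.71 and 6.91 without MMP9), and 6.26 and 5.74 for the 8 genes. No test was made of these differences.

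**Figure D3:**
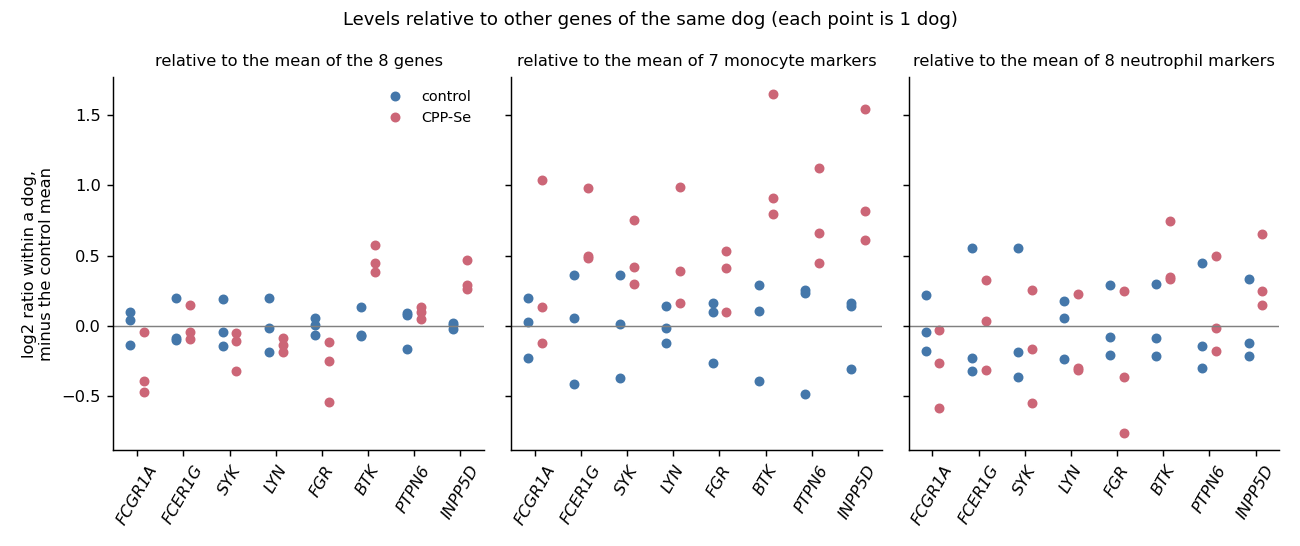
Log2 ratio within a dog, minus the mean of the control dogs, of each gene to the mean of the 8 genes, of 7 monocyte markers and of 8 neutrophil markers, with 1 point per dog. BTK and INPP5D lie above the control dogs in the first panel and FGR below, 5 genes lie above in the second and BTK alone in the third, where without MMP9 INPP5D does too.

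The rest of the pathway was described by 3 lists of genes chosen by function. Of the receptors that signal through such chains or restrain them, 18 of 33 were tested, 13 with a negative and 5 with a positive log2 fold change, and the median was -0.29 (-0.16 under the common sum of FPKM). Limma called none of them. At an unadjusted p under 0.05, 4 were lower and 3 higher, beside 9.1% and 6.87% of all genes tested. The negative binomial model called 3 lower and none higher, beside 2.47% and 1.42% of all genes tested. The 3 were TREM1, SIRPB2 and CLEC4E, of which TREM1 and CLEC4E encode activating receptors of myeloid cells. TREM1, which amplifies inflammatory responses, was at 37.8, 29.6 and 35.1 FPKM in the control dogs and 17.6, 20.1 and 17.9 FPKM in the CPP-Se dogs (log2 fold change -0.84, adjusted p = 0.138 in limma).

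SIRPB2 had means of 40.7 ± 5.23 and 18.4 ± 6.24 FPKM (log2 fold change -1.15), and CLEC4E, or Mincle, 7.33 ± 0.512 and 2.39 ± 1.51 FPKM (-1.41). The receptors furthest in the other direction were HCST, the DAP10 adaptor of NK and T cell receptors, and the B cell genes CD79B and CD22. CD79B was at 47.8, 31.9 and 28.2 FPKM in the control dogs and 49.1, 80.8 and 53.3 FPKM in the CPP-Se dogs, while HCST overlapped. None of these 3 had an adjusted p under 0.05 in limma or in the negative binomial model. FCGR2B, FCGR3A and SIRPA had no row of those names and were not analysed here.

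The list of kinases and phosphatases held 25 other genes of the pathway, among them the ubiquitin ligases CBL and CBLB and the adaptor PAG1. Of these 25, 23 were tested, 13 with a negative and 10 with a positive log2 fold change, and the median was -0.23 (-0.11 under the common sum of FPKM). Limma called none, and 3 were lower and 4 higher at an unadjusted p under 0.05, beside 9.1% and 6.87% of all genes tested. CSK, which holds SRC-family kinases inactive, overlapped, with means of 171 ± 12.4 and 185 ± 30.8 FPKM.

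The kinases of T cell receptor signaling stood on the other side. ZAP70, the T cell relative of SYK, was at 12.1, 15.6 and 9.88 FPKM in the control dogs and 33.9, 21.6 and 23.4 FPKM in the CPP-Se dogs. The SYK relative was thus higher in every CPP-Se dog where SYK itself was lower, with a log2 fold change of 1.01 (adjusted p = 0.161 in limma and 0.0113 in the negative binomial model). LCK, the SRC-family kinase of T cells, had means of 31.9 ± 7.53 and 58.8 ± 7.40 FPKM. ZAP70 and LCK were among the 3 genes of this list that the negative binomial model called higher, and CBL, a ubiquitin ligase that ends SYK signaling, the 1 it called lower, with means of 28.7 ± 1.53 and 18.1 ± 2.73 FPKM. Of all genes tested, that model called 1.42% higher and 2.47% lower. PTPRJ, a receptor tyrosine phosphatase, had a log2 fold change of -0.58 and an adjusted p of 0.204 in the negative binomial model. Its groups did not overlap, but the lowest control dog was only 1.005 times the highest CPP-Se dog.

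Of 39 adaptors and effectors, 37 were tested, 29 with a negative and 8 with a positive log2 fold change, and the median was -0.31 (-0.17 under the common sum of FPKM). Limma called none of them. At an unadjusted p under 0.05, 10 were lower and 1 higher, beside 9.1% and 6.87% of all genes tested. Without overlap, 14 were lower and 2 higher, beside 12.6% and 10.4% of all genes. These counts hold for the deposited scaling, and under the common sum of FPKM 3.15% of all genes were lower without overlap. The negative binomial model called 2, both lower, GAB2 and LCP2, beside 2.47% of all genes tested that it called lower. LCP2, or SLP-76, the adaptor phosphorylated by SYK, was at 56.7, 51.2 and 55.7 FPKM in the control dogs and 36.1, 36.8 and 34.4 FPKM in the CPP-Se dogs. Both groups were tight and well apart, with a log2 fold change of -0.59 and an adjusted p of 0.183 in limma and 0.0238 in the negative binomial model.

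GAB2, an adaptor of Fc receptor signaling, had means of 25.8 ± 2.76 and 14.5 ± 2.62 FPKM (log2 fold change -0.80). SOS1, an activator of RAS, followed these 2 by unadjusted p, at -0.53. PLCG1, the phospholipase of T cell receptor signaling, was the gene higher at an unadjusted p under 0.05, with means of 9.58 ± 2.54 and 14.5 ± 3.16 FPKM. PLCG2, its relative in B and myeloid cells, overlapped between the groups, with means of 17.8 ± 2.95 and 15.2 ± 3.56 FPKM, and so did VAV1, with 27.8 ± 2.84 and 21.9 ± 2.75 FPKM. BLNK, the B cell adaptor, and LAT, the T cell adaptor, had positive log2 fold changes of 0.40 and 0.46. CD79A, CD79B and BLK stand in both a pathway list and the B cell markers.

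**Figure D4:**
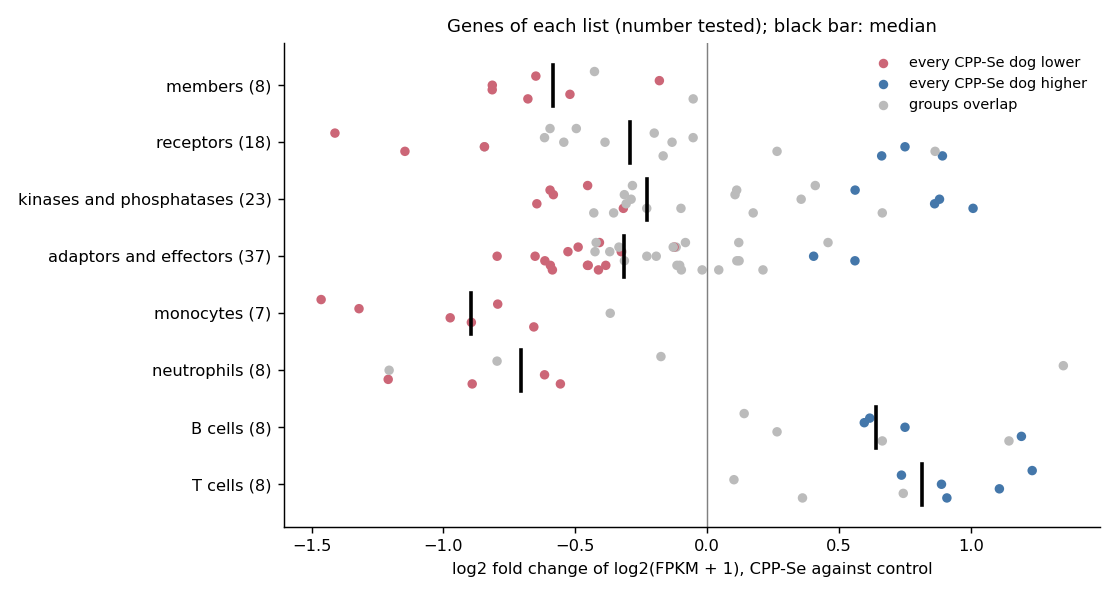
Log2 fold change of every tested gene of the 8 members, of 3 pathway lists and of 4 marker lists, with red for genes lower in every CPP-Se dog, blue for genes higher in every CPP-Se dog, grey for overlap and a black bar for the median. The medians run from -0.89 for monocyte markers over -0.59 for the 8 genes to 0.82 for T cell markers.

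Of the 3154 other genes that averaged 10 FPKM or more, the 5 whose profile over the 6 dogs was most like the mean profile of the 8 included TTC7A, PGD, GNAI2 and LASP1. Likeness was the root mean square difference of centred log2(FPKM + 1), which was 0.035 for TTC7A and 0.049 for LASP1. Of the members, PTPN6 lay nearest to their mean profile, at 0.097, and BTK farthest, at 0.25.

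Genes that overlap 3 of the members on the chromosome were examined because the strand setting of the counting is not given in the sources used here. H2BC18, on the opposite strand, overlaps FCGR1A by 8438 bases and held 31 to 57 reads in the control dogs and 18 to 56 in the CPP-Se dogs, which was 3.74% to 9.03% of the reads of FCGR1A. A gene without a symbol (ENSCAFG00000029884, chr29:7328501-7527510, minus strand) spans all 115824 bases of LYN and held 1192 to 2009 reads in the control dogs and 1408 to 2233 in the CPP-Se dogs, or 92.9% to 307% of those of LYN. Its groups overlapped, with a log2 fold change of 0.13, so it did not share the pattern of LYN, but reads of the 2 genes cannot be told apart where counting used no strand. C27H12orf57 overlaps PTPN6 by 152 bases on the same strand and had a log2 fold change of 0.34, with overlap between the groups.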

How the data were processed

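Per the labels and the study's methods, RNA was isolated by the authors using Trizol, selected for mRNA on oligo(dT) beads, made into NEBNext Ultra libraries and sequenced from both ends. The submitters' processing notes name CASAVA 2.19, fastp 0.19.7, HISAT2 2.0.5 and featureCounts 1.5.0-p3. The authors deposited FPKM for the 6 dogs. The use of strand and the library size behind the FPKM are not given in the sources used here. The deposited FPKM multiplied by gene length gave whole multiples of 1 step per library for 100% of genes (within 0.01 reads), which were taken as reads (6598173 to 8067034 per dog). Their number and 3 dogs per group limit the precision.

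Dogs were grouped by the titles of their libraries. Genes that averaged 1 FPKM or more (9847 of 31512) were tested, two-sided, on log2(FPKM + 1) with a pseudocount of 1 by limma 3.58.1 in R 4.3.3 (eBayes with a trend on intensity) and adjusted by Benjamini-Hochberg, so fold changes are on that scale and understate the change of low genes. The thresholds of a call were 0.05 for the adjusted p and 1.5 for the fold change. Within-dog ratios used log2 FPKM and an exact two-sided permutation test in Python 3.11.15 with scipy 1.17.1. Same-numbered dogs did not deviate together (correlations of 0.016, -0.090 and -0.043 over genes), so the numbers were not used as pairs. Alternatives were another pseudocount, other filters, 4 scalings, other eBayes settings, array weights, limma-voom with and without sample quality weights, a two-sided Wald test in a negative binomial model of those reads, a replicate block, and each dog left out. The gene-wise limma and negative binomial fits were tested on simulated data. A neutrophil reference without MMP9 was added after the data were seen.

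Members, lists and named genes were chosen with earlier results of these data known, so they are no independent evidence. The text names the members, genes overlapping them, a preset group of 10 pathway genes, in each list the 3 genes with the smallest unadjusted p in each direction, the 5 genes nearest in profile, and markers. MMP9 was singled out after its values were seen. Some genes that this rule covers are not reported here.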

Additional observations from a re-analysis of the deposited data

How the results depend on the processing

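Of the 20 other settings, none but 2 changed the number of members called: 1 (FCGR1A) by limma-voom with sample quality weights and 3 (FCGR1A, LYN and FGR) by the negative binomial model, against 0 by limma. With each dog at a common sum of FPKM, 0 members had an unadjusted p under 0.05, 1 was without overlap (FCGR1A) and their median log2 fold change was -0.43. With a common sum outside the hemoglobin genes these were 1, 1 (FCGR1A) and -0.44, and quantile normalization gave a median of -0.40 and 4 without overlap. Median-of-ratios factors left 5 without overlap. Under these 4 scalings, in this order, 3.15%, 4.84%, 10.9% and 12.1% of all genes tested were lower in every CPP-Se dog. The common sums raised the median of all genes by 0.13 and 0.12, and the median of the members minus that of all genes was -0.56 and -0.55, against -0.41 after quantile normalization and -0.58 in the deposited scaling. They divided CPP-Se replicate 2 by 0.652 and 0.764, median-of-ratios factors by 0.995. The medians of the receptors, of the kinases and phosphatases and of the adaptors and effectors were -0.16, -0.11 and -0.17 under the common sum, -0.17, -0.12 and -0.18 outside the hemoglobin genes, and -0.19, -0.16 and -0.21 after quantile normalization. BTK turned positive under both (0.092 and 0.082) and without control replicate 1 (0.054), none of them past the threshold. Leaving out each dog gave 0 members called, 4 to 5 at an unadjusted p under 0.05 and medians of -0.64 to -0.48, with BTK between -0.13 and 0.054.

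Over the 20 settings FCGR1A had an unadjusted p under 0.05 in 19, and SYK, LYN and FGR in 18 each. With a replicate block, 0 members were called, 4 had an unadjusted p under 0.05 and 1 gene of all tested was called, against 3 without the block, and it changed no other call on the members. The pathway lists were not run with it. All limits come from 3 dogs per group, and BTK rested on the fewest reads.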
